A study of Mus musculus with 12 samples.

Results

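The integrins, laminins and nidogens are the receptors and core scaffold proteins through which cells hold on to a basement membrane. Their members here are all probe sets on the array whose single gene symbol is that of an integrin alpha or beta chain, a laminin alpha, beta or gamma chain, or a nidogen. Earlier results of these data were known when the members were chosen, but the rule used names only and no measured value. It found 59 of 22690 probe sets, which read 33 of 12393 genes with such a symbol: 40 probe sets for 21 integrin genes (14 alpha and 7 beta chains), 16 probe sets for 10 laminin genes and 3 probe sets for 2 nidogen genes. Itga1, Itga10, Itga11, Itgad and Itgb8 had no single-symbol probe set in hand and are not analysed here.

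Each of 12 male mice gave liver RNA for a single Affymetrix MOE430A array. The groups were Mdr2-KO homozygous mice aged 3 months (KO 3 months), heterozygous mice aged 3 months (Het 3 months), Mdr2-KO homozygous mice aged 12 months (KO 12 months) and heterozygous mice aged 12 months (Het 12 months), with 3 mice in each. All 12 mice therefore carried the Mdr2-KO allele, the controls with a remaining intact copy, and no mouse without the allele was included. Mdr2 is the earlier name of Abcb4, the transporter that brings phosphatidylcholine into bile; its loss gives bile that injures the ducts, and the knockout is used as a model of hepatocellular carcinoma that follows chronic liver injury. The study asked which adaptive changes the liver shows at an earlier and a later age of this disease.

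Integrins are pairs of an alpha and a beta chain that span the cell membrane, bind matrix proteins or counter-receptors outside the cell and couple to actin inside it. Laminins are trimers of an alpha, a beta and a gamma chain that polymerise into the basement membrane, and nidogens bridge the laminin network to that of type IV collagen. In healthy liver, bile ducts and larger vessels rest on a basement membrane, whereas the sinusoids along the hepatocytes lack a continuous one, and laminin is laid down around sinusoids when the liver scars.

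The values were MAS 5.0 signals, which measure brightness per probe set on a linear scale, and a level of one probe set is not compared with that of another. Differences were tested on log2(signal + 16), so that a log2 fold change of a dim probe set is smaller than the log2 ratio of its signals. A probe set is called when its adjusted p is under 0.05 in a limma fit over 22626 probe sets. The p-values measure the spread between mice of a group. Abcb4 was used to check the labels of genotype, not those of age. Its signal was 281.2 to 386.1 in KO and 678.2 to 763.2 in Het mice at 3 months. At 12 months it was 243.3 to 332.0 in KO and 591.6 to 675.3 in Het mice. Whether its probes lie in the altered part of the gene was not tested. Array medians lay at 49.86 to 54.45 in KO and 58.14 to 60.42 in Het mice at 3 months, and at 62.38 to 71.36 in KO and 59.14 to 64.78 in Het mice at 12 months. The arrays were split into 3 scan sessions, which were inferred from gaps of over 35 minutes between stored scan times. The longest gap within a session was 29 minutes, and the shortest between sessions was 42 minutes. No session held KO and Het mice of the same age, so no value within a session exists. A fit with the session as a block could still be made through the other age, and its value stands beside each called member. It called 1.84% of all probe sets at 3 months and 0.287% at 12 months. The source label of mouse 1 of KO 3 months and of mouse 1 of Het 3 months gives the other age, against the title and the age field, which were followed.

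Many members were dim. Of the 59, 33 lay below the median of their array on all 12 arrays, 11 lay at or above it on all 12, and none was below the array's 10th percentile on all 12. A filter on low values would have kept 22 and dropped 37, so no filter was used and every member was tested. The files used here hold no detection calls, so a dim member is not called absent.

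At 3 months, 11 of the 59 probe sets passed the test between KO and Het mice, 8 higher and 3 lower. That is 18.6% of the members, against 13.8% of all probe sets tested (6.14% higher and 7.65% lower). Nidogen-1 had the largest log2 fold change, integrin beta chains made up 5 of the 8 higher ones, and a pair of laminin chains and the leukocyte chain Itgam were the lower ones. At 12 months, 9 of the 59 passed, 8 higher and 1 lower. That is 15.3% of the members, against 5.29% of all probe sets (3.46% higher and 1.83% lower). The median log2 fold change of the 59 was -0.01 at 3 months, where that of all probe sets was -0.09, and 0.15 at 12 months, where that of all probe sets was 0.03. Probe sets of the same gene share a transcript and are not independent, and the difference between members and all probe sets was not tested.

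By role, the 24 alpha-chain probe sets held 1 higher and 1 lower call at 3 months (8.33%). At 12 months they held 4 higher calls (16.7%). The 16 beta-chain probe sets held 5 higher calls at 3 months (31.2%) and 3 at 12 months (18.8%), and none lower. The 16 laminin probe sets held 1 higher and 2 lower calls at 3 months (18.8%) and 1 lower call at 12 months (6.25%). The 3 nidogen probe sets held 1 higher call at each age (33.3%). Of all probe sets, 13.8% were called at 3 months and 5.29% at 12 months. The roles were not tested against these shares. All 3 KO signals lay above all 3 Het signals for 11 members at 3 months, and below them for 8, where 12.8% and 22.9% of all probe sets did so. At 12 months the counts were 16 members above and 3 below, where 12.7% and 9.36% of all probe sets did so.

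**Figure D1:**
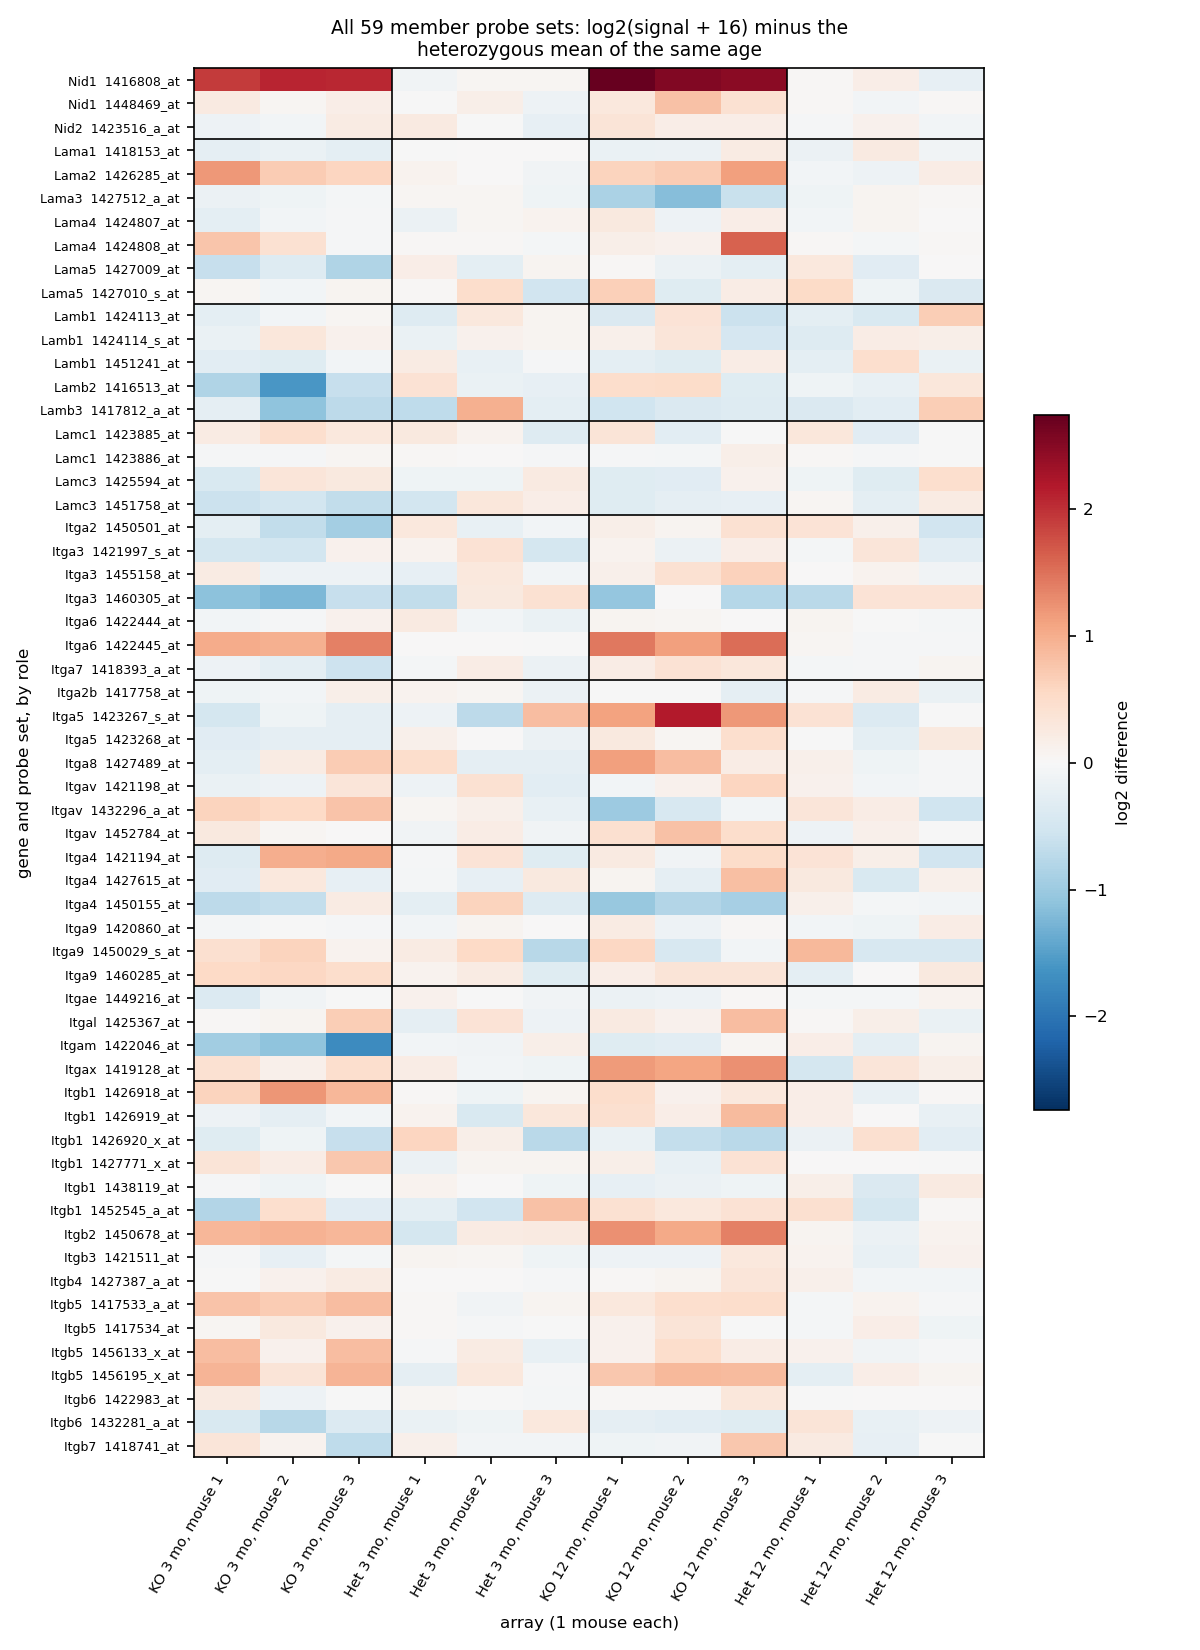
Log2(signal + 16) of the 59 probe sets (rows, by role) on each of the 12 arrays (columns), minus the mean of the heterozygous mice of the same age; red is higher and blue lower, in log2 units. The strongest red row is Nid1 1416808_at in the 6 KO arrays, and most rows stay pale in all columns.

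The promoters of 3 called genes are shown because they differ in what they hold: Nid1 has the largest log2 fold change, Itgb5 has the most called probe sets, and Itgax is the leukocyte chain that was higher at 12 months. The sequences are from RefSeq on GRCm38.p6, each from 250 bases before to 50 bases after the gene's start, 5′ to 3′ on the plus strand. Capitals mark matches on either strand to the GC box GGGCGG, to the CCAAT box, to the TATA box in the form TATAAA and to TGANTCA, the type of site that AP-1 binds, and the marked matches do not overlap. The regions are chr13:13437352-13437651 for Nid1, chr16:33829415-33829714 for Itgb5 and chr7:128129300-128129599 for Itgax.
Nid1: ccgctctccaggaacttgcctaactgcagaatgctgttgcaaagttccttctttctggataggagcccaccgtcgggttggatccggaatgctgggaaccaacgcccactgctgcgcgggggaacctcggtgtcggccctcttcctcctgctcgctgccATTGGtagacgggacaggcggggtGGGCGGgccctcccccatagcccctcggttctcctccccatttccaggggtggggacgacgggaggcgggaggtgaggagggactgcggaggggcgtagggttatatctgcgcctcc
Itgb5: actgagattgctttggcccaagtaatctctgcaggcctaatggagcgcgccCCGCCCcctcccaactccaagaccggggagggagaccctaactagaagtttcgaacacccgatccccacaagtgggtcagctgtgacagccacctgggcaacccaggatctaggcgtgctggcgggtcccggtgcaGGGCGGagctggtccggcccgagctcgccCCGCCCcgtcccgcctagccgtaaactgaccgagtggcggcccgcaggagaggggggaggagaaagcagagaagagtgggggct
Itgax: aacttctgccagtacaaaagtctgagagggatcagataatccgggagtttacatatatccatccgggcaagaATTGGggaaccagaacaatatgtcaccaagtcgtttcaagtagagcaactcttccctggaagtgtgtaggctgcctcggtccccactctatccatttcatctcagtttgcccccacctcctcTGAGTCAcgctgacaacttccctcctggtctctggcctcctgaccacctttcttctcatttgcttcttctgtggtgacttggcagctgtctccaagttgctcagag
The Nid1 window holds 1 GGGCGG and 1 CCAAT match, the Itgb5 window 3 GGGCGG matches, and the Itgax window 1 CCAAT and 1 TGANTCA match. Of the 13 genes with a call at 3 or 12 months, 10 had a promoter in the table. GGGCGG was in 8 of the 10, CCAAT in 2, TGANTCA in 1 and TATAAA in 0, whereas 35.7%, 37.4%, 7.81% and 13.6% of 32851 promoters held these motifs, in the same order. A match is a run of letters and not a shown binding site.

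Nid1, which encodes nidogen-1, rose in KO livers at both ages with the largest log2 fold change of the 59 members on the scale of log2(signal + 16). Its probe set 1416808_at had signals of 306.9, 344.0 and 342.2 in KO mice at 3 months, against 63.4, 72.5 and 72.3 in Het mice. In 12-month mice it had 480.0, 411.8 and 398.4 in KO mice, against 60.4, 68.6 and 47.4 in Het mice. Every KO array was thus above every Het array, and the KO signals of one age did not overlap those of the other. The mean was 331 ± 20.9 in KO and 69.4 ± 5.19 in Het mice at 3 months (SD, n = 3 each), a ratio of 4.77 and a log2 fold change of 2.02 ± 0.14 (SE, adjusted p = 1.27e-06). At 12 months it was 430 ± 43.8 in KO and 58.8 ± 10.7 in Het mice, a ratio of 7.31 and a log2 fold change of 2.58 ± 0.14 (adjusted p = 1.48e-07). Among all 22626 probe sets, Nid1 ranked 12 by p at 3 months and 4 at 12 months.

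The Nid1 difference also passed with the scan session as a block, at 2.12 (adjusted p = 0.00535) at 3 months and 2.48 (adjusted p = 0.0049) at 12 months. No other member passed there at either age. The second Nid1 probe set, 1448469_at, had log2 fold changes of 0.16 at 3 months and 0.50 at 12 months and passed at neither age; its mean signal was 7.71 in KO and 5.30 in Het mice at 3 months, and 15.3 in KO and 5.86 in Het mice at 12 months. Nid2, the other nidogen, had a mean signal of 28.7 in KO and 28.8 in Het mice at 3 months, and 47.6 in KO and 37.8 in Het mice at 12 months, with log2 fold changes of 0.00 and 0.24 and no call. The stellate cell and fibroblast markers, taken as a sum, moved in the same direction as Nid1. The summed signal of 10 stellate cell and fibroblast markers was 3206.5 to 3966.8 in KO and 1457.4 to 1602.0 in Het mice at 3 months, and 2918.6 to 3335.1 in KO and 1449.3 to 1945.3 in Het mice at 12 months. At 3 months, 6 of these 10 markers were called higher and 1, Lrat, was called lower (log2 fold change -0.81). At 12 months 5 were called higher, and none of the 10 was at 0 on any array. Under the session block, 3 of the 7 calls at 3 months and 0 of the 5 at 12 months passed, and all kept their direction. In whole liver, more cells of a type and more RNA per cell cannot be told apart, and the part of the stellate markers in the Nid1 result was not tested.

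**Figure D2:**
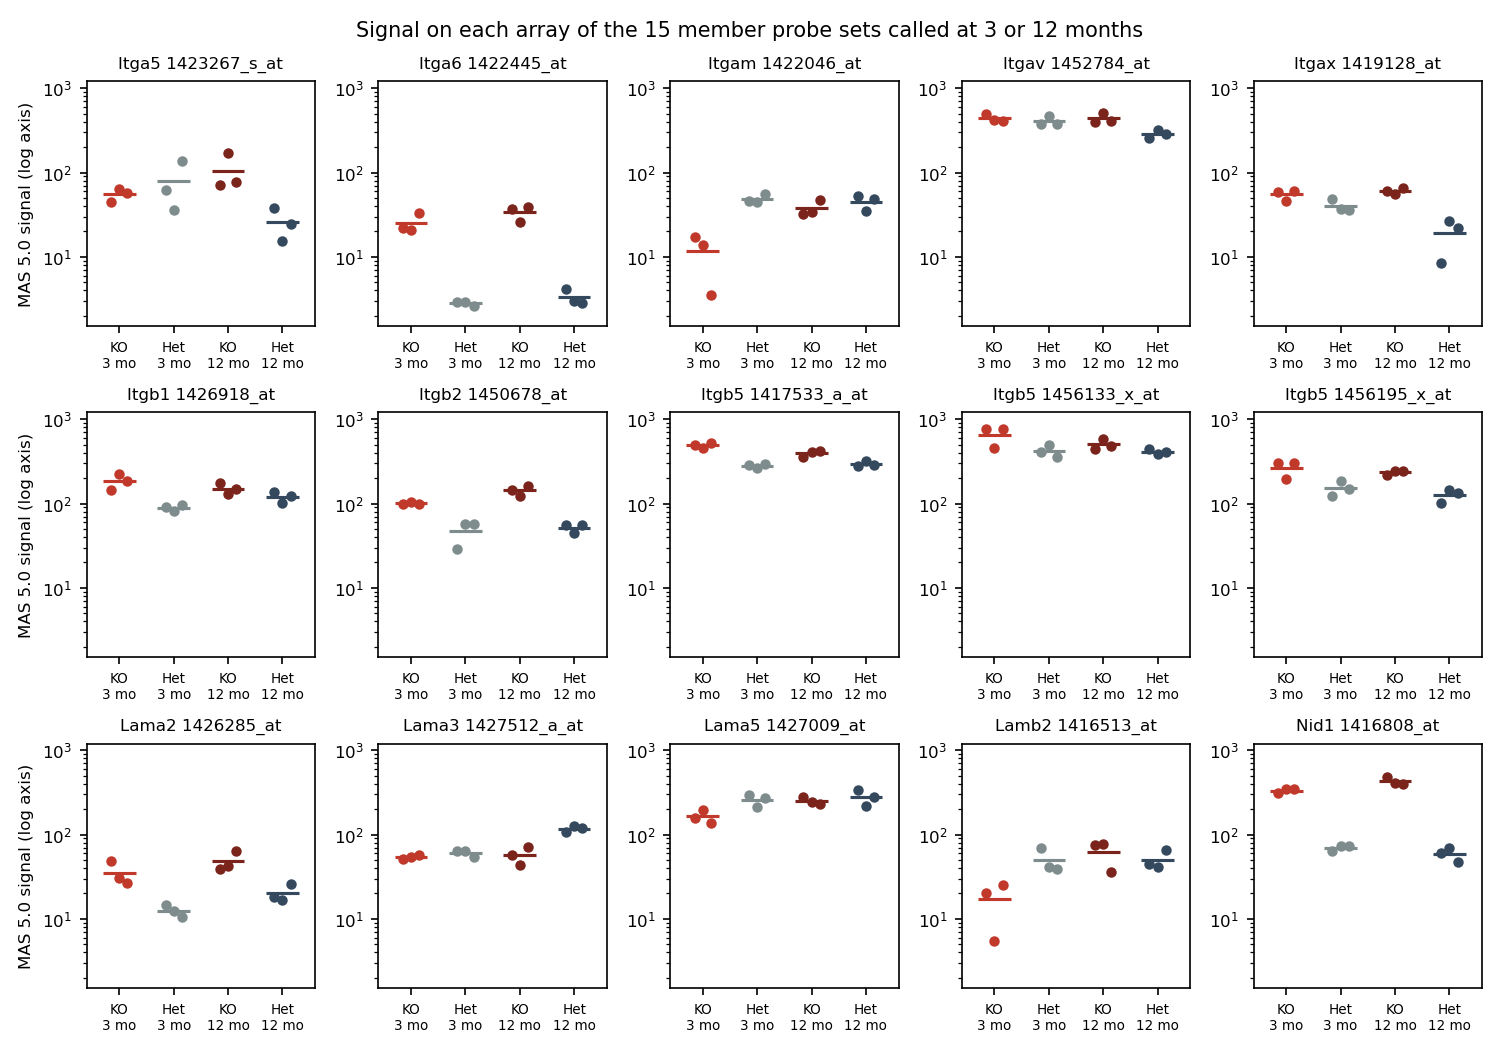
MAS 5.0 signal (log axis) of the 15 probe sets called at 3 or 12 months, 1 point per mouse and a line at the group mean, with KO left of Het at each age. Nid1 1416808_at and Itga6 1422445_at show the widest gaps between KO and Het points, and Itgb5 1456133_x_at overlaps at 3 months.

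The laminin chains moved in both directions. Lama2, the alpha chain of the laminin of muscle and nerve sheaths, had 48.9, 30.3 and 26.6 in KO mice at 3 months, against 14.5, 12.4 and 10.4 in Het mice. At 12 months it had 39.3, 42.2 and 63.0 in KO mice, against 18.3, 16.8 and 25.9 in Het mice. The groups did not overlap at either age. Lama2 rose by 0.83 ± 0.24 on the log2 scale at 3 months (adjusted p = 0.0313), and the 12-month difference of 0.81 did not pass (adjusted p = 0.0642). The 3-month call was lost when KO mouse 1 or 2, or any of the 3 Het mice, of that age was left out (adjusted p 0.0605 to 0.118). It was also lost with the session as a block (0.40, adjusted p = 0.597) and without the arrays whose labels disagree on age.

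Lama5, the alpha chain of laminins in most adult epithelial and vessel basement membranes, had 158.5, 195.3 and 137.0 in KO mice at 3 months (probe set 1427009_at), against 292.3, 209.2 and 267.8 in Het mice. In the older mice it had 280.6, 242.1 and 226.9 in KO mice, against 337.7, 218.9 and 278.5 in Het mice. Only at 3 months were the groups apart. It fell by 0.60 on the log2 scale at 3 months (SE 0.17, adjusted p = 0.0345) and had a log2 fold change of -0.13 at 12 months. The call was lost without KO mouse 1 or 3 or Het mouse 1 or 3 of that age (adjusted p 0.0829 to 0.12). It was also lost with the session block (-0.32, adjusted p = 0.614) and without the arrays whose labels disagree on age. The second Lama5 probe set, 1427010_s_at, had log2 fold changes of 0.02 and 0.17, with mean signals of 98.1 in KO and 101 in Het mice at 3 months and 123 in KO and 107 in Het mice at 12 months.

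Lama3, the alpha chain of the laminin that anchors epithelia, differed at 12 months, where the KO signals were 57.2, 43.0 and 71.8, against 107.0, 124.8 and 120.4 in Het mice. At 3 months they were 51.9, 54.7 and 57.0 in KO mice, against 63.3, 63.6 and 54.1 in Het mice, and overlapped. Lama3 fell by 0.88 on the log2 scale at 12 months (SE 0.19, adjusted p = 0.0157), while the 3-month value was -0.11. The KO means were 54.5 at 3 months and 57.3 at 12 months, whereas the Het means were 60.3 and 117 (12 minus 3 months in Het mice 0.81, adjusted p = 0.0977). The call was lost without KO mouse 2 or Het mouse 2 or 3 of that age (adjusted p 0.0571 to 0.0663) and with the session block (-0.93, adjusted p = 0.364).

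Lamb2, a laminin beta chain of vessel and nerve-muscle basement membranes, had 20.2, 5.5 and 25.4 in KO mice at 3 months, against 68.9, 41.1 and 39.4 in Het mice. The 12-month signals were 75.4, 76.9 and 36.0 in KO mice, against 44.5, 41.2 and 65.3 in Het mice, and the groups overlapped. The 3-month fall of 1.02 on the log2 scale (SE 0.32, adjusted p = 0.0452) was lost when any 1 of KO mice 1 and 2 or of the 3 Het mice of 3 months, KO mouse 1 of 12 months or any Het mouse of 12 months was left out (adjusted p 0.0505 to 0.182). With the session as a block the difference was 0.005 (adjusted p = 0.997). The call was also lost without the arrays whose labels disagree on age, with quantile normalization and with an offset of 64. The remaining laminin members, which include the beta chain Lamb1, the gamma chains Lamc1 and Lamc3 and the alpha chains Lama1 and Lama4, passed at neither age. Lamc1 1423885_at, of the gamma chain found in most laminins, averaged 90.6 in KO and 70.3 in Het mice at 3 months, and 74.1 in KO and 72.9 in Het mice at 12 months.

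Among the integrin beta chains, Itgb5 and Itgb2 rose at both ages and Itgb1 at 3 months on a single probe set. Itgb5 pairs with the alpha chain Itgav to bind vitronectin. Its probe set 1417533_a_at had 491.6, 459.6 and 518.1 in KO mice at 3 months, against 285.0, 260.9 and 292.9 in Het mice. In 12-month mice it had 360.6, 408.9 and 416.6 in KO mice, against 280.8, 316.7 and 285.9 in Het mice. The groups were apart at both ages. The log2 fold change was 0.78 ± 0.11 at 3 months (adjusted p = 0.000362) and 0.41 ± 0.11 at 12 months (adjusted p = 0.0383). The 12-month call was lost when any 1 of 7 arrays was left out, namely Het mouse 1 or 3 of 3 months, KO mouse 2 or 3 of 12 months or any Het mouse of 12 months (adjusted p 0.0512 to 0.134), whereas the 3-month call held in all 12 such fits. With the session as a block the values were 0.68 (adjusted p = 0.1) and 0.41 (adjusted p = 0.554). The 12-month call was also lost without the arrays whose labels disagree on age.

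A second Itgb5 probe set, 1456195_x_at, had 300.2, 196.4 and 298.9 in KO mice at 3 months, against 122.8, 185.4 and 146.6 in Het mice. At 12 months it had 217.7, 243.5 and 242.4 in KO mice, against 101.4, 144.6 and 131.8 in Het mice. It rose by 0.74 (adjusted p = 0.0172) and 0.83 (adjusted p = 0.0168) on the log2 scale, with no overlap at either age. These calls were lost without KO mouse 1 or 3 or Het mouse 1 at 3 months (adjusted p 0.0625 to 0.0714), and without KO mouse 2 or 3 or Het mouse 1 at 12 months (adjusted p 0.0544 to 0.0783). The probe set 1456133_x_at had 759.3, 452.3 and 759.8 in KO mice at 3 months, against 404.5, 489.8 and 357.2 in Het mice, and its groups overlapped through KO mouse 2. In the older mice it had 446.5, 581.4 and 477.8 in KO mice, against 448.2, 386.8 and 404.1 in Het mice. It passed at 3 months (0.61, adjusted p = 0.039) and not at 12 months (0.27, adjusted p = 0.501). The 3-month call was lost without KO mouse 1 or 3 or Het mouse 1 or 3 of that age or KO mouse 3 of 12 months (adjusted p 0.051 to 0.137). With the session as a block, 1456195_x_at had 0.54 (adjusted p = 0.394) and 0.43 (adjusted p = 0.79), and 1456133_x_at had 0.68 at 3 months (adjusted p = 0.321). Without the arrays whose labels disagree on age, the 3-month calls of both these probe sets were lost. The last Itgb5 probe set, 1417534_at, had 0.15 at each age and passed at neither, with mean signals of 255 in KO and 228 in Het mice at 3 months and 265 in KO and 237 in Het mice at 12 months. All 4 Itgb5 log2 fold changes were thus positive at both ages. In the array's naming, probe sets ending in _x_at or _s_at can also bind other transcripts.

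Itgb2, the beta chain that all leukocyte integrins of the CD18 family share, had 99.9, 103.1 and 99.6 in KO mice at 3 months, against 28.5, 56.5 and 57.2 in Het mice. The 12-month signals were 144.6, 122.7 and 160.7 in KO mice, against 54.9, 44.7 and 56.2 in Het mice. Every KO signal was above every Het signal. On the log2 scale it rose by 0.92 ± 0.21 at 3 months (adjusted p = 0.0116), and the 12-month rise was 1.22 ± 0.21 (adjusted p = 0.00338). Both calls held in all 12 fits that left out an array, but the 3-month call was lost without the arrays whose labels disagree on age (adjusted p = 0.0834), and both with the session as a block (0.44, adjusted p = 0.435, and 0.43, adjusted p = 0.749).

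Like Itgb2, the summed macrophage and Kupffer cell markers were higher in KO than in Het mice at both ages. The summed signal of 11 markers was 4075.4 to 6590.5 in KO and 2010.2 to 2085.2 in Het mice at 3 months, and 4202.1 to 4877.7 in KO and 2044.2 to 2341.0 in Het mice at 12 months. Of the 11, 9 were called higher and 1 lower at 3 months and 6 higher at 12 months, and none was at 0 on any array. The session block left 4 of the 10 calls at 3 months and 1 of the 6 at 12 months, and all kept their direction. Neutrophil markers (7) summed to 241.5 to 305.2 in KO and 353.4 to 379.2 in Het mice at 3 months, and to 313.6 to 520.2 in KO and 339.4 to 380.4 in Het mice at 12 months. The 8 T and NK cell markers summed to 149.0 to 297.0 in KO and 315.7 to 390.9 in Het mice at 3 months, and to 297.5 to 373.3 in KO and 309.2 to 373.0 in Het mice at 12 months. The part of these cells in the Itgb2 result was not tested.

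Itgb1, the beta chain with the most alpha partners and the one that pairs with most laminin and collagen receptors, is read by 6 probe sets. Only 1426918_at passed, with 144.7, 225.8 and 182.7 in KO mice at 3 months, against 91.2, 81.7 and 95.3 in Het mice. In 12-month mice it had 172.8, 129.7 and 148.9 in KO mice, against 135.8, 100.3 and 122.1 in Het mice. The groups were apart at 3 months and overlapped at 12 months. The log2 fold change was 0.91 ± 0.18 (adjusted p = 0.00416) at 3 months and 0.30 (adjusted p = 0.414) at 12 months. It held in all 12 fits that left out an array and was lost with the session as a block (0.93, adjusted p = 0.167). Another Itgb1 probe set, 1452545_a_at, averaged 281 in KO and 338 in Het mice at 3 months and 393 in KO and 311 in Het mice at 12 months. It passed at neither age, and the 6 Itgb1 log2 fold changes ranged from -0.36 to 0.91 at 3 months and from -0.52 to 0.49 at 12 months. No probe set of Itgb3, Itgb4, Itgb6 or Itgb7 passed at either age.

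**Figure D3:**
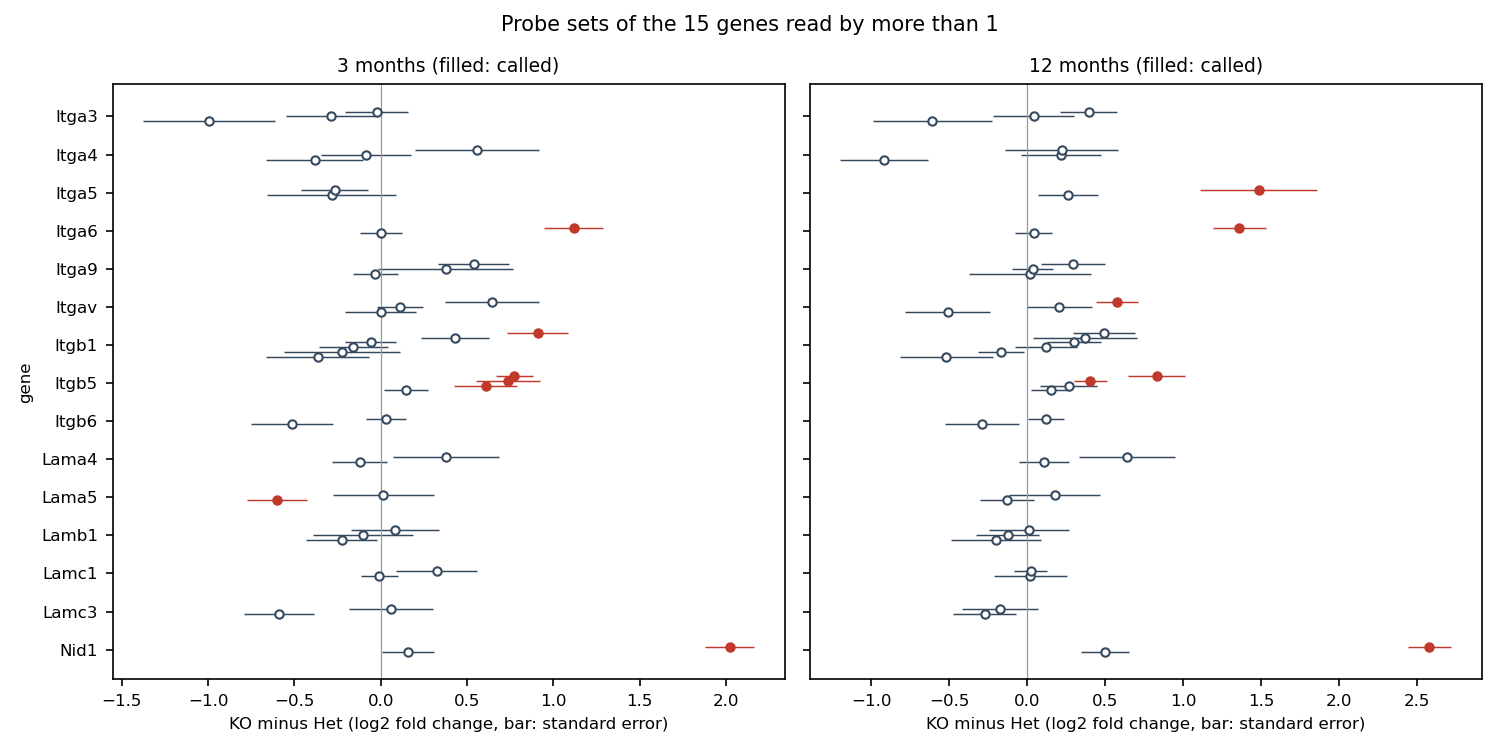
Log2 fold change (KO minus Het) with its standard error for each probe set of the 15 genes read by more than 1, at 3 months (left) and 12 months (right); filled points are called. For Nid1, Itga6 and Itga5 a called probe set stands well right of the other probe set of its gene. The 4 Itgb5 points all lie right of 0, from 0.15 to 0.78 at 3 months and from 0.15 to 0.83 at 12 months.

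Of the alpha chains, Itga6 and Itgam passed at 3 months, and Itga6, Itgax, Itgav and Itga5 at 12 months. Itga6 forms laminin receptors with Itgb1 or Itgb4. Its probe set 1422445_at had 21.9, 20.9 and 32.7 in KO mice at 3 months, against 2.9, 2.9 and 2.6 in Het mice. At 12 months it had 36.7, 25.9 and 39.4 in KO mice, against 4.2, 3.0 and 2.8 in Het mice. All 6 KO signals were above all 6 Het signals, while all 12 lay below the median of their array. Its log2 rise was 1.12 ± 0.17 in the younger (adjusted p = 0.000869) and 1.36 ± 0.17 in the older mice (adjusted p = 0.00029).

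The size of the Itga6 change depends on the offset because the Het signals are so low. With an offset of 1 the log2 fold changes were 2.76 and 3.01, above those of Nid1, and with an offset of 64 they were 0.41 and 0.54. Both calls held in all 12 fits that left out an array, and were lost with the session as a block (0.89, adjusted p = 0.135, and 1.29, adjusted p = 0.131). The other Itga6 probe set, 1422444_at, averaged 5.10 in KO and 5.23 in Het mice at 3 months and 4.46 in KO and 3.90 in Het mice at 12 months, and did not pass. Bile duct cells carry Itga6, and the 6 cholangiocyte markers in hand summed to 206.8 to 245.9 in KO and 95.6 to 137.3 in Het mice at 3 months, and to 111.1 to 425.6 in KO and 97.8 to 146.6 in Het mice at 12 months. Of the 6, 1 was called higher at 3 months and 0 at 12 months, none was at 0 on any array, and their part in the Itga6 result was not tested.

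The leukocyte alpha chains Itgam and Itgax, which both pair with Itgb2, were called at different ages and with opposite signs. Itgam, the alpha chain of the complement receptor of macrophages and neutrophils, had 17.4, 13.9 and 3.5 in KO mice at 3 months, against 45.5, 44.5 and 55.9 in Het mice. In the older mice it had 32.4, 34.0 and 47.2 in KO mice, against 53.0, 34.6 and 48.3 in Het mice. It fell by 1.26 on the log2 scale at 3 months (SE 0.25, adjusted p = 0.00525), with no overlap, and had a log2 fold change of -0.18 at 12 months, with overlap. The 3-month fall stands beside the rise of Itgb2 and the higher summed macrophage markers in the same mice. It also stands beside the summed neutrophil markers, which were lower in KO mice at that age without overlap, although 0 of the 7 was called. The macrophage marker called lower at 3 months was Adgre1 (log2 fold change -0.64, adjusted p = 0.0244), which averaged 128 ± 27.6 in KO and 206 ± 26.7 in Het mice. The part of these cells in the Itgam result was not tested. Itgam lay below the median of its array on all 12 arrays. With the session as a block its difference was -1.65 (adjusted p = 0.0908).

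Itgax, the alpha chain carried by dendritic cells and some macrophages, had 60.8, 56.1 and 65.3 in KO mice at 12 months, against 8.5, 26.7 and 22.1 in Het mice. At 3 months it had 58.3, 45.9 and 60.4 in KO mice, against 47.9, 37.0 and 35.5 in Het mice, and the groups overlapped. It rose by 1.17 ± 0.24 on the log2 scale at 12 months (adjusted p = 0.0117), and its 3-month value was 0.34 (adjusted p = 0.389). The KO means were 54.8 at 3 months and 60.7 at 12 months, whereas the Het means were 40.1 and 19.1 (12 minus 3 months in Het mice -0.71, adjusted p = 0.237). The call was lost without Het mouse 1 of that age (0.93, adjusted p = 0.0533) and with the session as a block (1.41, adjusted p = 0.291). Itgal, which also pairs with Itgb2, and Itgae, which pairs with Itgb7, are found on lymphocytes and passed at neither age.

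Of the alpha chains that bind the RGD tripeptide of fibronectin and vitronectin, Itgav and Itga5 passed at 12 months only. Itgav 1452784_at had 392.2, 513.0 and 407.5 in KO mice at 12 months, against 258.3, 318.5 and 284.1 in Het mice. At 3 months it had 495.1, 423.3 and 410.1 in KO mice, against 377.6, 471.0 and 379.3 in Het mice, and the groups overlapped. It was higher in KO mice by 0.58 ± 0.14 on the log2 scale at 12 months (adjusted p = 0.0219), and the 3-month value was 0.11. The KO means were 443 at 3 months and 438 at 12 months, whereas the Het means were 409 and 287. Between the ages in Het mice (12 minus 3 months) the difference was -0.49 (adjusted p = 0.143). The call was lost without KO mouse 2 or Het mouse 1 or 3 of that age (adjusted p 0.0656 to 0.0986) and with the session as a block (0.47, adjusted p = 0.636). The 2 other Itgav probe sets had log2 fold changes of 0.21 and -0.51 at 12 months and did not pass.

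Itga5, the alpha chain of the fibronectin receptor, had 71.6, 168.6 and 76.3 in KO mice at 12 months (1423267_s_at), against 37.9, 15.3 and 24.3 in Het mice. At 3 months it had 45.3, 63.0 and 56.4 in KO mice, against 62.3, 36.4 and 138.4 in Het mice, and the groups overlapped. KO mouse 2 of 12 months and Het mouse 3 of 3 months stood above the other mice of their groups. Itga5 was higher in KO mice by 1.49 ± 0.38 on the log2 scale at 12 months (adjusted p = 0.0323), and the 3-month value was -0.29. The KO means were 54.9 at 3 months and 105 at 12 months, and the Het means 79.0 and 25.8. Neither age difference passed (adjusted p = 0.268 in KO and 0.251 in Het mice). The call was lost without KO mouse 2 or 3 or Het mouse 2 or 3 of that age (adjusted p 0.0592 to 0.131). It was also lost with the session as a block (1.44, adjusted p = 0.596) and without the arrays whose labels disagree on age. The other Itga5 probe set, 1423268_at, averaged 66.6 in KO and 83.7 in Het mice at 3 months and 88.0 in KO and 71.2 in Het mice at 12 months, and did not pass.

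The other alpha chains passed at neither age. Itga2b, the platelet alpha chain, averaged 105 in KO and 106 in Het mice at 3 months, and 122 in KO and 132 in Het mice at 12 months. The 5 platelet markers in hand summed to 241.4 to 300.6 in KO and 257.9 to 304.5 in Het mice at 3 months, and to 297.6 to 353.0 in KO and 241.2 to 327.5 in Het mice at 12 months. Itga3 1455158_at, of a laminin receptor of epithelia, averaged 122 in KO and 125 in Het mice at 3 months, and 125 in KO and 90.4 in Het mice at 12 months. Itga9 1460285_at, of a receptor for tenascin and osteopontin, averaged 88.3 in KO and 56.8 in Het mice at 3 months, and 89.2 in KO and 70.7 in Het mice at 12 months. No probe set of Itga2, Itga4, Itga7 or Itga8 passed. Endothelial markers (11) summed to 1170.4 to 1615.3 in KO and 1200.2 to 1302.7 in Het mice at 3 months, and to 1355.9 to 1394.0 in KO and 1044.8 to 1275.3 in Het mice at 12 months.

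Of the 15 genes read by more than 1 probe set, 7 had a call, and for 0 of them did every probe set pass in the same comparison. A call therefore speaks for its probe set. The KO arrays of 3 months, on which Itgam, Lama5 and Lamb2 were lower, also had the lowest medians and 10th percentiles (4.105 to 4.805, against 5.699 to 6.002 in Het mice of that age), and the part of this in the lower calls was not tested. The ratio of the 3′ to the 5′ signal of actin, a measure of RNA integrity that is higher in degraded RNA, was 4.92 ± 1.59 in KO and 6.996 ± 1.635 in Het mice at 3 months, and 2.79 ± 0.44 in KO and 3.64 ± 0.56 in Het mice at 12 months. With this ratio as a covariate, a fit chosen after the data were seen, 11 members passed at 3 months and 6 at 12 months. The 3-month call of Lamb2 was lost there, so the 11 include a member not called without the covariate. The 12-month calls of Lama3, Itga5 1423267_s_at and Itgb5 1417533_a_at were lost there too. That fit called 6.68% of all probe sets at 3 months and 4.11% at 12 months, against 13.8% and 5.29% without the covariate. The same ratio of GAPDH was 1.23 to 1.876 in KO and 2.091 to 3.641 in Het mice at 3 months, without overlap. At 12 months it was 1.031 to 1.189 in KO and 1.133 to 1.584 in Het mice, and the part of the GAPDH ratio in the results was not tested.

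Called at both ages were 5 probe sets of 4 genes, namely Nid1, Itga6, Itgb2 and 2 probe sets of Itgb5. That is 8.47% of the members, against 2.88% of all probe sets. Called at either age were 15 probe sets of 13 genes (25.4% of the members, against 16.2% of all probe sets). The sign was the same at both ages for 41 of the 59 (69.5%, against 61.9% of all probe sets). Across the 59 probe sets, Pearson's r between the effects was 0.64 and Spearman's rho 0.55. With both Nid1 probe sets left out, r was 0.51, the same as over all probe sets (0.51). These describe probe sets, which are not independent, from different mice fitted in a single model and scanned in shared sessions.

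**Figure D4:**
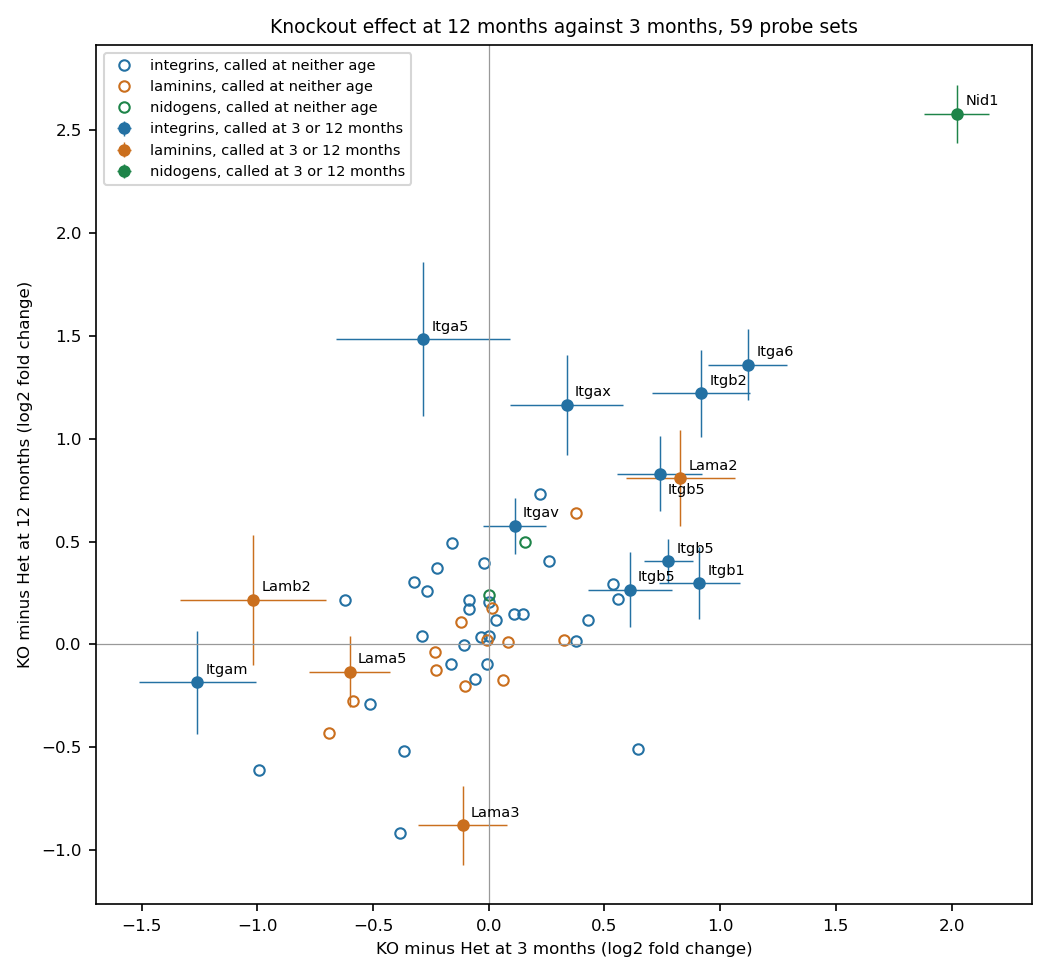
Log2 fold change (KO minus Het) at 12 months against that at 3 months for the 59 probe sets; filled points with standard error bars are called at 3 or 12 months and named. Nid1 is alone at the upper right (2.02, 2.58), and Itgam, Lamb2 and Lama5 lie left of 0 while near 0 on the 12-month axis.

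Whether the knockout effect differed between the ages was tested for every member. None passed (0 of 59, against 0.19% of all probe sets), and the smallest adjusted p was 0.173, for Itga5 1423267_s_at (difference of effects 1.77). At an unadjusted p under 0.05 there were 13 members (22%, against 13.5% of all probe sets). For Nid1 the 12-month effect exceeded the 3-month effect by 0.56 on the log2 scale (adjusted p = 0.253). Calls at one age and not at the other, such as those of Itgb1, Itgam, Itgax, Itgav, Lama3 and Lamb2, are thus not shown to differ between ages.

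Between 12 and 3 months within KO mice, 2 of 59 probe sets passed, both higher at 12 months (3.39%, against 4.39% of all probe sets and 2.91% higher). Lamb2 rose by 1.26 (adjusted p = 0.0395) and Itgam by 0.99 (adjusted p = 0.0414) on the log2 scale, and each was also lower in KO than in Het mice at 3 months. Lamb2 averaged 62.8 ± 23.2 at 12 months and 17.1 ± 10.3 at 3 months (SD, n = 3 each), and Itgam 37.8 ± 8.12 at 12 months and 11.6 ± 7.24 at 3 months. The median of all probe sets was 0.15 in this comparison and 0.01 after quantile normalization, where neither passed (1.02 and 0.75, adjusted p = 0.13 for each). Both calls were kept only when Het mouse 2 of 12 months was the array left out; each of the other 11 such fits left 0 or 1. In the session-block fit, Lamb2 had 0.71 (adjusted p = 0.258) and Itgam 1.23 (adjusted p = 0.0678). With the actin ratio as a covariate, Lamb2 had 1.43 (adjusted p = 0.184) and Itgam 0.94 (adjusted p = 0.264). Within Het mice no member passed (0 of 59, against 0.27% of all probe sets), 7 had an unadjusted p under 0.05 (11.9%, against 12% of all probe sets), and the smallest adjusted p was 0.0977, for Lama3.

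A list of 30 genes of integrin adhesion, 27 of them in hand, covered 22 cytoplasmic proteins that link integrins to actin or act in their signalling, and 5 membrane partners (Cd9, Cd81, Cd82, Cd151 and Cd47). At 3 months, 4 of the 27 were called higher and 3 lower in KO mice, with a list median of 0.17, where 15% of 12393 genes were called (6.72% higher and 8.28% lower) and the median of all genes was -0.08. Fermt2, or kindlin-2, which activates integrins by binding their beta tails, fell to a mean signal of 528 ± 48.2 in KO mice, against 1028 ± 21.5 in Het mice (log2 fold change -0.94, adjusted p = 0.000208). Cd47, a membrane partner of integrins, averaged 589 ± 87.3 in KO and 297 ± 64.9 in Het mice (SD, n = 3 each; log2 fold change 0.96, adjusted p = 0.000973). The tetraspanin Cd9 averaged 149 ± 30 in KO and 51.0 ± 21.5 in Het mice (1.34, adjusted p = 0.00412), and the adhesion kinase Ptk2b 120 ± 17.3 in KO and 38.5 ± 24.2 in Het mice (1.41, adjusted p = 0.011). Cd151 was also higher, and Bcar1 and Parvb were also lower. In this split, made after the values were seen, the 22 cytoplasmic proteins held 1 higher call (Ptk2b) and 3 lower, and the 5 membrane partners held 3 higher and 0 lower.

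At 12 months, 4 genes of this list were called higher and 1 lower, with a list median of 0.13, where 6.41% of all genes were called (4.06% higher and 2.35% lower) and the median of all genes was 0.03. Fermt2 fell again, to 576 ± 39.7 in KO mice, against 1048 ± 168 in Het mice (-0.84, adjusted p = 0.000795). Cd9 averaged 256 ± 78.1 in KO and 71.5 ± 9.70 in Het mice (1.60, adjusted p = 0.00189). Lims1, an adaptor of the integrin-linked kinase, averaged 216 ± 26.6 in KO and 108 ± 20.4 in Het mice (0.91, adjusted p = 0.0109), and vinculin (Vcl) 369 ± 41.2 in KO and 264 ± 3.50 in Het mice (0.45, adjusted p = 0.0256). Rsu1 was also higher. The cytoplasmic proteins held 3 of the higher calls and the lower one, and Cd9 was the membrane partner called. With the session as a block, 0 of the 7 and 0 of the 5 calls passed, though all kept their direction.

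Of 25 other integrin ligands and laminin partners, 24 were in hand, and 8 were called higher and 0 lower at each age. Over all 12393 genes, 6.72% were called higher and 8.28% lower at 3 months, and 4.06% higher and 2.35% lower at 12 months. The calls were of the same 8 genes, Col4a1, Col4a2, Dag1, Icam1, Cdh1, Mfge8, Tgfb1 and Sparc. The list medians were 0.13 at 3 months and 0.21 at 12 months, where those of all genes were -0.08 and 0.03. The type IV collagen chain Col4a2, part of the network that nidogen binds, averaged 204 ± 8.51 in KO and 84.6 ± 7.60 in Het mice at 3 months (1.13, adjusted p = 0.000888), and 205 ± 54.9 in KO and 83.5 ± 6.24 in Het mice at 12 months (1.12, adjusted p = 0.00143). Col4a1, its partner chain, averaged 312 ± 72.0 in KO and 127 ± 28.6 in Het mice at 12 months (1.19, adjusted p = 0.00172). Mfge8, a secreted ligand of the Itgav integrins, averaged 435 ± 52.3 in KO and 153 ± 24.5 in Het mice at 3 months (1.42, adjusted p = 3.93e-05), and 402 ± 24.2 in KO and 116 ± 18.2 in Het mice at 12 months (1.67, adjusted p = 1.1e-05).

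E-cadherin (Cdh1), the ligand of the Itgae integrin, averaged 409 ± 56.3 in KO and 175 ± 2.97 in Het mice at 3 months (1.15, adjusted p = 0.000205), and 406 ± 39.7 in KO and 121 ± 24.0 in Het mice at 12 months (1.63, adjusted p = 1.32e-05). The matrix protein Sparc averaged 722 ± 104 in KO and 374 ± 25.5 in Het mice at 3 months (0.91, adjusted p = 0.000276). With the session as a block, Cdh1 alone of the 8 passed at each age (1.27, adjusted p = 0.049, and 1.65, adjusted p = 0.0434), and all 8 kept their direction at both ages. The 8 hepatocyte markers in hand, a check of the tissue, summed to 42301.7 to 48867.1 in KO and 46180.5 to 50038.8 in Het mice at 3 months, and to 25673.5 to 40522.4 in KO and 43324.2 to 47745.3 in Het mice at 12 months.

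**Figure D5:**
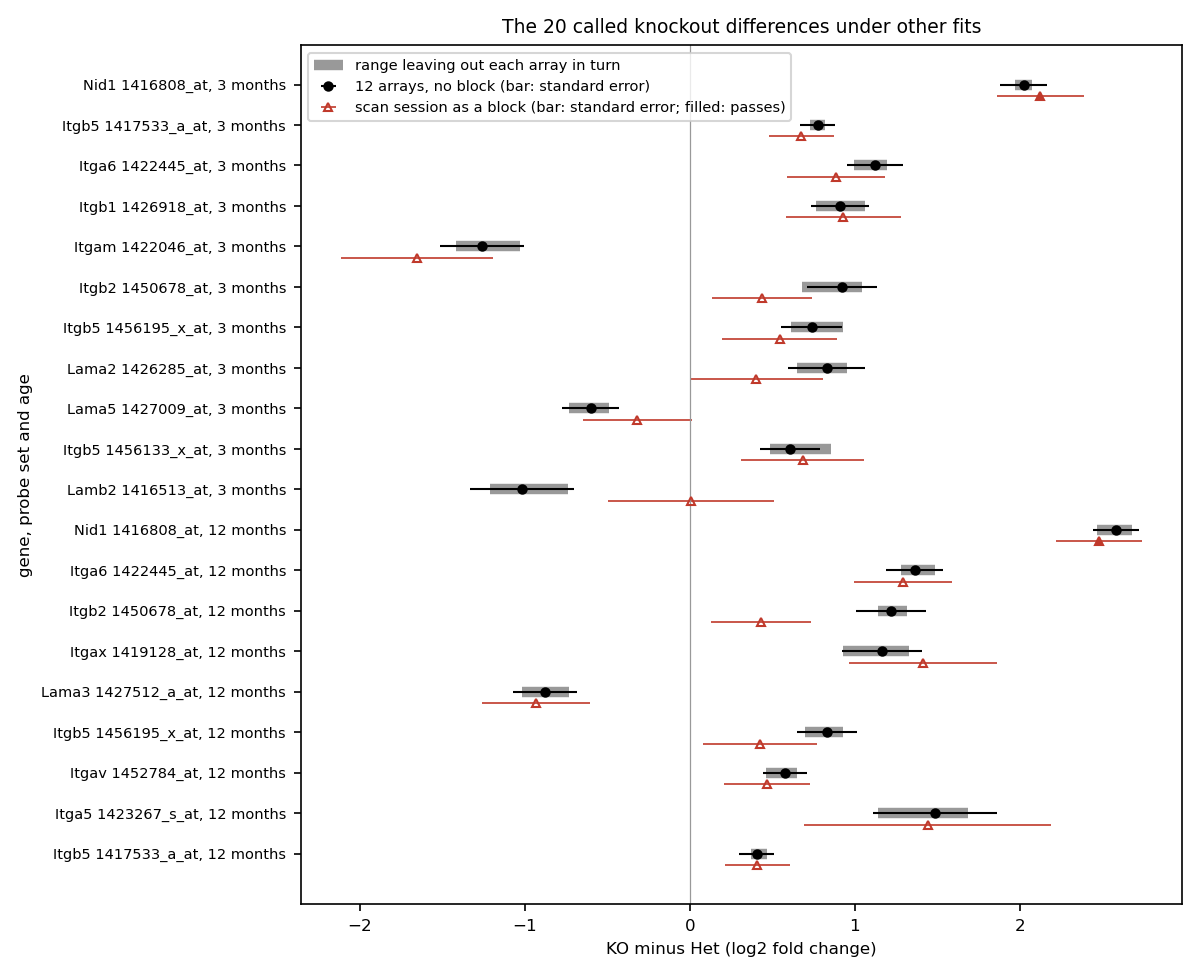
The 20 called KO minus Het differences (log2 fold change) with their standard errors in the fit of 12 arrays without a block (black), the range when each array is left out in turn (grey) and the value with the scan session as a block (red triangles, filled where the test passes). Only the Nid1 triangles are filled, and the 3-month Lamb2 triangle lies at 0.005.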

How the data were processed

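The value table holds MAS 5.0 signals, an intensity per probe set on a linear scale, deposited by the authors as MAS 5.0 output; the design text of the series and the submitters' processing notes name that software. How MAS 5.0 was set to scale the arrays is not stated in the sources used. The trimmed mean of each array (between the percentiles 2 and 98) was 149.63 to 149.98 as deposited. Each array was brought to a common trimmed mean, 16 was added and log2 taken. Of 22690 probe sets, 64 controls were left out. The platform table gave a single symbol to 20393 probe sets, several to 691 and none to 1606, and all 33 member symbols were the same in RefSeq (GRCm38.p6).

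All 12 arrays entered a single limma fit (lmFit and eBayes with an intensity trend, limma 3.58.1 in R 4.3.3) with 4 group means. The contrasts were KO against Het at each age, 12 against 3 months in each genotype, and the difference of the knockout effects. Adjusted p-values are from limma with Benjamini-Hochberg over 22626 probe sets, and 0.05 was the threshold. The fit was tested on simulated data. Tables were made in Python 3.11.15 (pandas 2.3.3 and numpy 2.4.6), and the figures were drawn with matplotlib 3.10.9.

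Full values are given for members called between KO and Het at 3 or 12 months, group means for the 8 uncalled members of highest mean log2 signal, and counts for the rest. Of each other list (integrin machinery, ligands and partners), up to 4 called genes of smallest p are given with values, each read by its probe set of highest mean signal. Marker lists covered macrophage, T and NK, neutrophil, platelet, endothelial, stellate, cholangiocyte and hepatocyte genes, summed as signals. Members and lists were chosen with earlier results of these data known.

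Alternatives were quantile normalization, offsets of 1 and 64, a filter on dim probe sets (at or above the array median on at least 3 arrays), 1 probe set per gene, the scan session or the mouse number as a block, no intensity trend, array weights, and leaving out arrays. Leaving out the arrays with a fluidics error or run with another fluidics script, and the actin ratio as a covariate, were added after seeing the data. Scan sessions were separated by gaps of over 35 minutes in the scan times stored with the arrays, and no session or script label was used as a group. The number of arrays limits the precision.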

Additional observations from a re-analysis of the deposited data

How the results depend on the processing

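Of 22 called values (20 between genotypes and 2 between ages in KO mice), the 2 of Nid1 passed in all 25 alternatives, at 1.56 to 2.24 at 3 months and 2.01 to 2.86 at 12 months on the log2 scale. At 3 months the count of called members, 11, became 1 with the scan session as a block (1.84% of all probe sets called). It became 6 without the arrays whose labels disagree on age (7.03%) and 6 without those run with the other fluidics script (10.8%). In the fit of 12 arrays 13.8% of all probe sets were called. Without the disagreeing labels, the calls of Itgb2, Lama2, Lama5, Lamb2 and Itgb5 1456195_x_at and 1456133_x_at were lost. The 6 called there thus include a member outside the 11. Leaving out each array gave 6 (without KO mouse 1 of 3 months, 9.93%) to 11. At 12 months the count of 9 became 1 with the session block (0.287%) and 4 without the arrays with a fluidics error (2.98%), against 5.29%. Leaving out each array gave 4 (without KO mouse 2 of 12 months, 3.85%) to 10. The count of 2 between ages in KO mice became 0 with quantile normalization, the replicate block, the actin ratio, or without the arrays of disagreeing age labels, of fluidics errors or of the other script. It became 1 with an offset of 64, the dim filter, array weights or the session block, where the call was that of Lama4 1424808_at, and leaving out each array gave 0 to 2. Between ages in Het mice the count of 0 became 1 with array weights (Lama3). The difference of the knockout effects gave 0 throughout. The 3-month fall of Lamb2 was turned to 0.005 by the session block, the only reversal; the cause was not tested. Mouse numbers are shared only as numbers, since the mice differ and same-numbered deviations correlated at -0.27 to 0.19; with the mouse number as a replicate block, 16 of the 22 called values passed, and 10 members were called at 3 months and 7 at 12 months. Among all probe sets, called age differences in KO mice were 658 higher and 335 lower, but 183 higher and 247 lower after quantile normalization, and 1 in all with the actin ratio as a covariate. Likewise 3120 and 1197 genotype calls became 417 and 65 with the session block and 1511 and 930 with the actin ratio. Low signals limit the dim members, whose fold changes depend on the offset.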
